A study of Danio rerio with 12 samples.

Results

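The genes described here form the Gdnf and Ret signalling route of spermatogonial self-renewal: the ligand genes gdnfa and gdnfb, the receptor gene ret, the co-receptor genes gfra1a, gfra1b and gfra2a, and the transcription factor genes etv5a and etv5b. They were chosen by name, and the names were matched to the Ensembl gene IDs of the count tables. Where the symbol table gave only a name without the final letter, every ID under that name was taken. This gave 6 gene IDs of the 33737 in the tables: ret (listed as RET, ENSDARG00000055305), etv5a (ENSDARG00000069763), etv5b (ENSDARG00000044511), 1 ID named GDNF (ENSDARG00000039959) and 2 IDs named GFRA2 (ENSDARG00000042723 and ENSDARG00000044015). The table does not say which copy the GDNF ID or either GFRA2 ID is, so gfra2b may be among them. The co-receptor genes gfra1a and gfra1b and the other gdnf copy were not analysed here.

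Gdnf is a secreted factor that in the mouse testis comes from somatic cells, among them Sertoli cells and peritubular cells, and keeps spermatogonial stem cells in self-renewal. It binds a Gfra co-receptor that is anchored to the cell surface by a lipid, and the complex then activates the receptor tyrosine kinase Ret, which passes the signal to the Ras-Erk, Src and PI3-kinase routes. Gfra1 is the preferred co-receptor of Gdnf, and Gfra2 that of the related ligand neurturin. In mouse spermatogonia the ETS-family transcription factor Etv5 acts downstream of Gdnf, and in the zebrafish embryo etv5a and etv5b are known as targets of Fgf signalling through Erk. Outside the germ line Ret is best known from enteric and sympathetic neurons.

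RNA was sequenced from 12 libraries of testis tissue of adult wild-type zebrafish, each kept for 48 h in the presence of trilostane, which blocks the making of steroid hormones. In 6 of them, the controls, trilostane was the only agent. The other 6 had trilostane plus Fsh, the follicle-stimulating hormone of the pituitary, whose targets in the zebrafish testis are Sertoli and Leydig cells. The tissue was sequenced whole, so fewer cells of a type and less RNA per cell cannot be told apart. Libraries held 4695095 to 11497588 counts. Levels are read counts scaled to library size (CPM); the limit that a count of 0 sets, at 3 counts, was 0.259 to 0.641 CPM and covers counting error only. Germ cell genes were abundant in every library, with a summed level of 8 general germ cell genes, among them DDX4 (vasa), DAZL and PIWIL1, of 2669 to 4428 CPM in controls and 2707 to 4062 CPM with Fsh.

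Among these genes ret stood out: its mean level with Fsh was 3.01-fold below that of the controls, although the difference did not pass the test over all genes. The difference of GDNF, present at very few reads, pointed the same way. By the edgeR fit the co-receptor ID GFRA2 (ENSDARG00000042723) was 1.67-fold lower and the other GFRA2 ID 1.11-fold lower. The transcription factor genes etv5a and etv5b were 1.17-fold and 1.13-fold lower by the same fit, and none of these passed. Across all genes 1.63% of 19317 tested were called (315 genes, edgeR quasi-likelihood test, Benjamini-Hochberg adjusted p under 0.05). By direction 0.865% were called higher and 0.766% called lower. Of the 5 genes of the route that passed the low-count filter 0 were called. At an unadjusted p under 0.05 stood 1 of the 5, ret, against 17.4% of all genes tested. DESeq2 called 1 of them, again ret, where it called 4.72% of the 23082 genes it tested. The limma-voom fit called 0 of them, where it called 361 genes or 1.87% of all it tested. All 5 fitted fold changes were below 0, as were 9607 of the 19317 over all genes, and the median of the 5 was that of etv5a, a log2 fold change of −0.23, beside 0.00 over all genes.

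**Figure D1:**
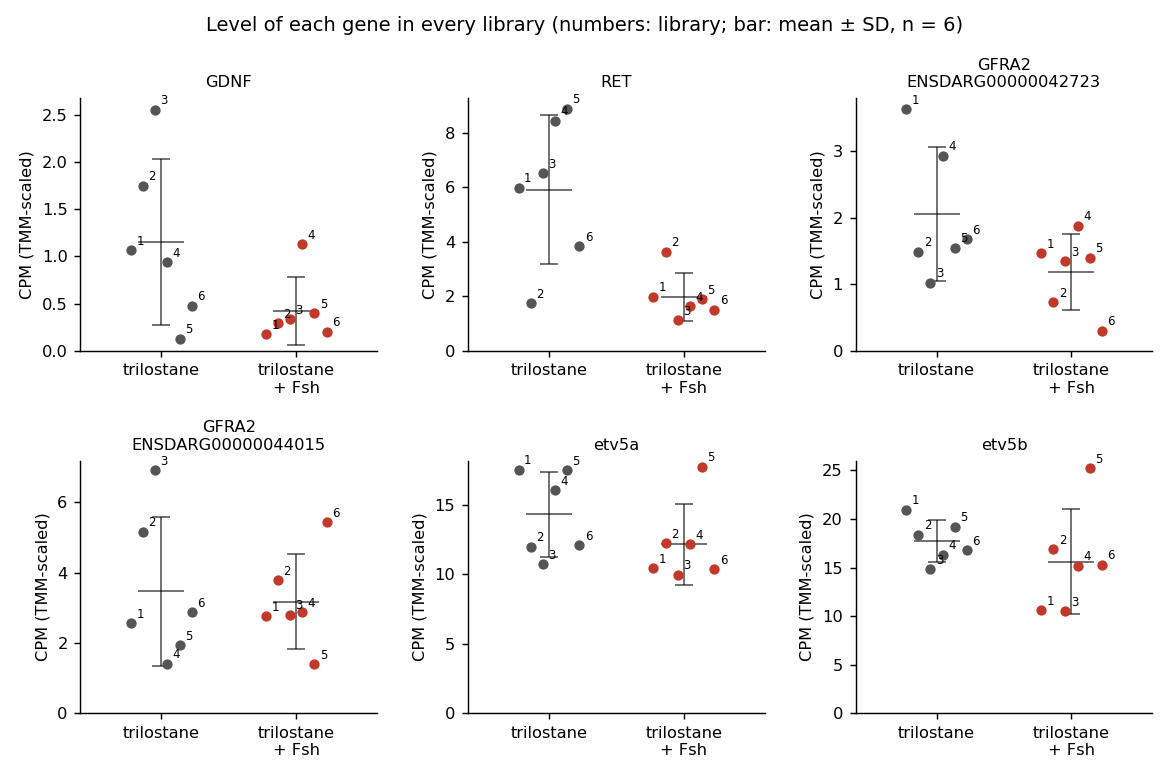
Level in CPM (scaled by TMM, linear axes from 0) of each of the 6 gene IDs in every library of testis tissue with trilostane alone (grey) or with trilostane and Fsh (red). Points are libraries with their number, and bars give the mean ± SD of 6 libraries. For RET 5 of 6 controls lie above all Fsh libraries, while for etv5a and etv5b the groups overlap and Fsh library 5 is the highest of all.

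The ligand ID GDNF was near the limit of detection. It had 5, 20, 20, 8, 1 and 4 reads in control libraries 1 to 6, and 2, 2, 3, 9, 4 and 2 reads in Fsh libraries 1 to 6. Control libraries 2 and 3 and Fsh library 4 thus held the most reads of their groups, and the groups overlapped. The level averaged 1.15 ± 0.88 CPM in controls and 0.421 ± 0.357 CPM with Fsh (SD, n = 6 each), and all 6 Fsh libraries lay below the control mean. GDNF did not pass the low-count filter and so was not tested with the other genes. In an edgeR fit of all genes with at least 1 read its log2 fold change was −1.46 ± 0.60 (SE; unadjusted p = 0.0280, adjusted p = 0.290), and DESeq2 gave an adjusted p of 0.214.

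The receptor gene ret had 272 reads in the controls and 105 with Fsh. Its level was 5.98, 1.75, 6.52, 8.45, 8.89 and 3.83 CPM in control libraries 1 to 6. With Fsh it was 1.98, 3.64, 1.12, 1.63, 1.90 and 1.51 CPM in libraries 1 to 6. All 6 Fsh libraries lay below the control mean, and 5 of 6 controls lay above the highest Fsh library. The groups overlapped through control library 2, which at 1.75 CPM stood inside the Fsh range. In relative terms ret varied about as much within the controls (46.3% of the mean) as with Fsh (44.7%).

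The log2 fold change of ret was −1.59 ± 0.38 (SE, n = 6 per group; 95% interval −2.40 to −0.78), with an unadjusted p of 0.000902 and an adjusted p of 0.0530 in edgeR. By p it ranked 327 of 19317, just behind the 315 genes called. DESeq2 gave nearly the same fold change with an adjusted p of 0.00306, and limma-voom −1.42 ± 0.44 with an adjusted p of 0.113. Without control library 2 the edgeR call was made (−1.81 ± 0.30, unadjusted p = 5.33e-05, adjusted p = 0.0156), in a fit that called 1.28% of all genes. It was also made without control library 6 (−1.71 ± 0.39, adjusted p = 0.0348). These are the 2 controls with the lowest levels. Without control library 6, however, the unadjusted edgeR p of ret was nearly unchanged at 0.000797. That fit called 700 genes, 3.58% of those tested, against 315 or 1.63% with all libraries. Without any other single library ret was not called, at edgeR adjusted p values from 0.0525 to 0.132. The direction was the same in all 22 alternative fits.

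Neither co-receptor ID passed the test. GFRA2 (ENSDARG00000042723) was at 3.63, 1.49, 1.02, 2.93, 1.55 and 1.68 CPM in control libraries 1 to 6. In Fsh libraries 1 to 6 it was at 1.47, 0.728, 1.34, 1.88, 1.40 and 0.302 CPM. All 6 Fsh libraries lay below the control mean, but only control libraries 1 and 4 lay above the whole Fsh range. Its log2 fold change of −0.74 ± 0.40 did not pass (95% interval −1.60 to 0.12, edgeR adjusted p = 0.366).

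GFRA2 (ENSDARG00000044015) was at 2.56, 5.16, 6.91, 1.41, 1.93 and 2.87 CPM in control libraries 1 to 6. In Fsh libraries 1 to 6 it was at 2.76, 3.78, 2.80, 2.89, 1.40 and 5.43 CPM. The groups overlapped almost throughout, with control library 3 highest and Fsh library 5 and control library 4 lowest. Its log2 fold change was −0.14 ± 0.39 (95% interval −0.99 to 0.70, edgeR adjusted p = 0.890), and the sign turned without control library 3 (0.16) or without Fsh library 5 (0.01). The log2 ratio of this ID over the other, taken within each library, averaged 0.65 ± 1.35 in controls and 1.40 ± 1.37 with Fsh. That difference of 0.75 did not pass (two-sided exact permutation test, p = 0.368, adjusted p = 0.442 over 6 ratios, higher than the control mean in 4 of 6 Fsh libraries).

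The ETS transcription factor genes etv5a and etv5b were the best measured of the set, with 1349 and 1711 reads in all. The gene etv5a was at 17.5, 12.0, 10.7, 16.1, 17.5 and 12.1 CPM in control libraries 1 to 6. With Fsh it was at 10.4, 12.2, 9.97, 12.2, 17.8 and 10.4 CPM in libraries 1 to 6. Of the Fsh libraries 5 of 6 lay below the control mean, and the exception, Fsh library 5, was the highest of all 12. The mean level was 14.3 ± 3.06 CPM in controls and 12.2 ± 2.91 CPM with Fsh, a log2 fold change of −0.23 ± 0.18 (95% interval −0.62 to 0.15, edgeR adjusted p = 0.541).

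The gene etv5b was at 20.9, 18.4, 14.8, 16.3, 19.2 and 16.8 CPM in control libraries 1 to 6. With Fsh it was at 10.6, 16.9, 10.5, 15.2, 25.2 and 15.3 CPM in libraries 1 to 6. Here too 5 of 6 Fsh libraries lay below the control mean and Fsh library 5 was the highest of all. The log2 fold change was −0.18 ± 0.20 (95% interval −0.60 to 0.24, edgeR adjusted p = 0.682). Without Fsh library 5 the log2 fold changes of etv5a and etv5b were both −0.37 (edgeR adjusted p = 0.195 and 0.184).

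The etv5 copies followed each other over the libraries, with a Pearson r of 0.80 (Spearman 0.84) between their log2 levels over 12 libraries, given as a description of libraries that share their depth and composition. Within a library, the log2 ratio of etv5b reads to etv5a reads averaged 0.32 ± 0.23 in controls and 0.32 ± 0.23 with Fsh, and the difference was 0.00 (two-sided exact permutation test, p = 0.991, adjusted p = 0.991 over 6 ratios). The controls covered 0.02 to 0.61 and the Fsh libraries 0.02 to 0.56, so the shares of the copies overlapped throughout.

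**Figure D2:**
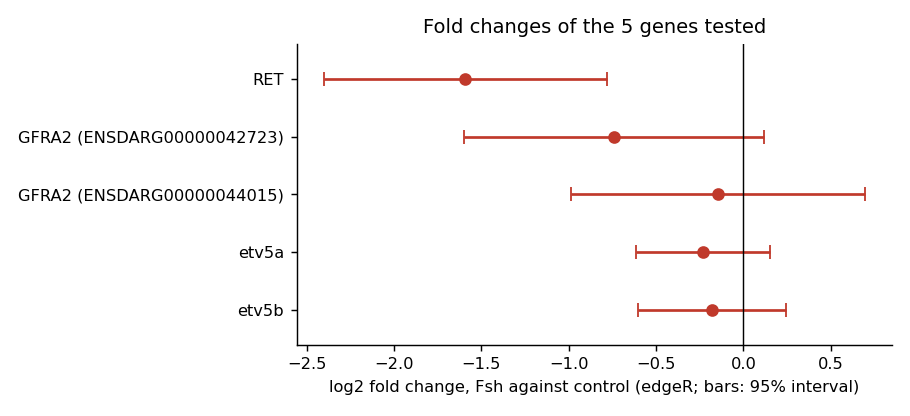
Log2 fold change (Fsh against control, edgeR, 6 libraries per group) of the 5 gene IDs that passed the low-count filter, with 95% intervals. The interval of RET runs from −2.40 to −0.78, and the intervals of the GFRA2 IDs, etv5a and etv5b include 0.

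To compare the changes of ret and the etv5 genes, the ratio of ret reads to etv5 reads was taken within each library. Such a ratio needs no scaling between libraries. It was chosen after the counts were seen, so its p values reuse the difference already seen in ret. The log2 ratio of ret over etv5a was −1.52, −2.72, −0.71, −0.92, −0.97 and −1.63 in control libraries 1 to 6. With Fsh it was −2.35, −1.71, −3.03, −2.81, −3.16 and −2.70 in libraries 1 to 6. All 6 Fsh libraries were below the control mean, and the groups overlapped through control library 2 alone. The ratio was lower with Fsh by a mean log2 difference of −1.22 (two-sided exact permutation test, p = 0.0130, adjusted p = 0.0649 over 6 ratios).

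Over etv5b the log2 ratio of ret averaged −1.73 ± 0.90 in controls and −2.95 ± 0.57 with Fsh, also a difference of −1.22 (two-sided exact permutation test, p = 0.0216, adjusted p = 0.0649 over 6 ratios, lower than the control mean in 6 of 6 Fsh libraries). Neither ratio passed after adjustment. Without control library 2 both did, at differences of −1.48 and −1.53 and an adjusted p of 0.0130 each. Over GFRA2 (ENSDARG00000042723) the ret ratio differed by −0.66 (exact permutation test, p = 0.262, adjusted p = 0.393, lower in 4 of 6 Fsh libraries). Over GFRA2 (ENSDARG00000044015) it differed by −1.41 (exact permutation test, p = 0.0714, adjusted p = 0.143, lower in 6 of 6 Fsh libraries), and passed without control library 2 (−1.87, adjusted p = 0.0303). These data thus did not show at the adjusted threshold that ret differed in its change from the other genes of the route.

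**Figure D3:**
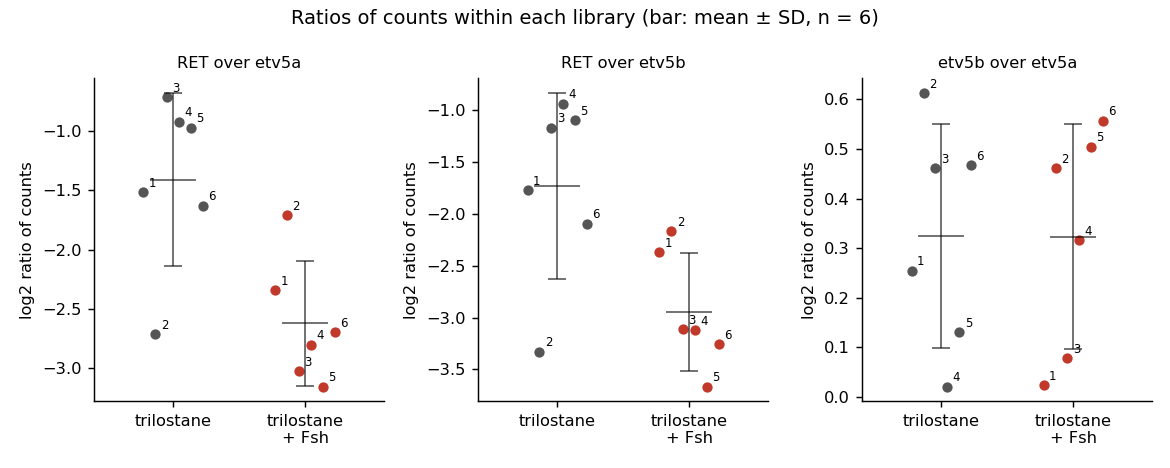
Log2 ratio of read counts within each library (1 added to each count) for RET over etv5a, RET over etv5b and etv5b over etv5a, in controls (grey) and with Fsh (red), with the mean ± SD of 6 libraries. For both RET ratios all Fsh libraries lie below the control mean while control library 2 lies among them, and for etv5b over etv5a the groups cover the same range.

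Among other ligands, co-receptors and binding partners of the Gdnf family, the 1 ID that rose was that of a binding partner. Of 7 IDs for ligands, co-receptors and binding partners 4 passed the low-count filter, of which 1 rose and 0 fell. Over all genes tested 1.63% were called and 17.4% had an unadjusted p under 0.05 (edgeR), the background for this and each later list. For calls by DESeq2 and limma-voom that background was 4.72% and 1.87%. The co-receptor genes gfra3 (log2 fold change 0.11 ± 0.37, edgeR adjusted p = 0.913) and gfra4b (−0.45 ± 0.31, adjusted p = 0.487) did not pass. The neurturin gene nrtn, the co-receptor gene gfra4a and gfral, the receptor of Gdf15, had 52, 34 and 9 reads over the 12 libraries and were not tested. The gene that rose was NCAM1 (ENSDARG00000056181), a neural cell adhesion molecule that in mammals also serves as a Ret-independent receptor for Gdnf together with Gfra1. It went from 31.0 ± 6.22 to 48.6 ± 7.15 CPM (log2 fold change 0.64 ± 0.15, edgeR adjusted p = 0.0435). The call held without control library 6 or Fsh library 1, 5 or 6, and leaving out any of the other 8 libraries ended it (adjusted p up to 0.102). The leukocyte list as a covariate ended it as well (adjusted p = 0.0849), but that covariate was itself lower on average with Fsh. NCAM1 (ENSDARG00000007220), of the same symbol, averaged 8.14 and 10.9 CPM (0.43 ± 0.21, adjusted p = 0.308).

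Genes that carry the Ret signal inside the cell showed no call. All 28 IDs for adaptors, Ras proteins, Mek and Erk kinases, Src, phospholipase C gamma and the PI3-kinase route were tested, and 0 rose and 0 fell (edgeR), with 4 at an unadjusted p under 0.05 and 0 called by DESeq2 or limma-voom. Their log2 fold changes ran from −0.60 to 0.24 with a median of −0.06. The smallest p belonged to the GTPase gene HRAS, which averaged 29.7 ± 3.95 CPM in controls and 19.6 ± 6.71 CPM with Fsh (−0.60 ± 0.20, adjusted p = 0.149). Adaptor genes of activated Ret, SHC1 (0.03 ± 0.12, adjusted p = 0.931) and GAB1 (−0.33 ± 0.15, adjusted p = 0.270), did not pass either, and nor did the kinase gene SRC (−0.37 ± 0.14, adjusted p = 0.194). The Mek gene MAP2K2, with the next smallest p after HRAS, lay above 0 (0.23 ± 0.08, adjusted p = 0.157).

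Fgf signalling shares etv5a and etv5b as targets in the zebrafish embryo, so its receptors and the feedback genes of the Erk route were examined as well. Of 22 IDs 16 were tested, and 0 rose and 0 fell (edgeR), with 2 at an unadjusted p under 0.05 and 0 called by DESeq2 or limma-voom. The receptor gene FGFR2 had the smallest p, at 16.9 ± 2.12 and 22.8 ± 4.61 CPM (log2 fold change 0.43 ± 0.15, adjusted p = 0.146). ETV4, a relative of the etv5 genes, averaged 14.4 and 17.8 CPM (0.31 ± 0.20, adjusted p = 0.462). The Erk feedback inhibitor genes SPRY4 (−0.60 ± 0.28, adjusted p = 0.287), DUSP5 (−0.59 ± 0.31, adjusted p = 0.342) and DUSP6 (−0.05 ± 0.20, adjusted p = 0.932) did not pass, and nor did SPRED1 (0.19 ± 0.09, adjusted p = 0.260) and SPRY2 (0.05 ± 0.18, adjusted p = 0.921), which lay above 0.

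Genes known to respond to Gdnf or Etv5 in mouse spermatogonial stem cells gave a like picture. Of 14 IDs 13 were tested, and 0 rose and 0 fell (edgeR), with 1 at an unadjusted p under 0.05 and 0 called by DESeq2 or limma-voom. That gene was egr2a, an early-response zinc finger gene, at 3.27 ± 0.54 CPM in controls and 2.13 ± 0.81 CPM with Fsh (log2 fold change −0.60 ± 0.24, adjusted p = 0.221). The transcription factor gene lhx1a (0.62 ± 0.72, adjusted p = 0.705), whose mouse counterpart Lhx1 is an Etv5 target, did not pass. Nor did bcl6ab (−0.23 ± 0.12, adjusted p = 0.361), a family relative, not the direct counterpart, of the mouse Etv5 target Bcl6b. The median log2 fold change of the list was −0.14.

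**Figure D4:**
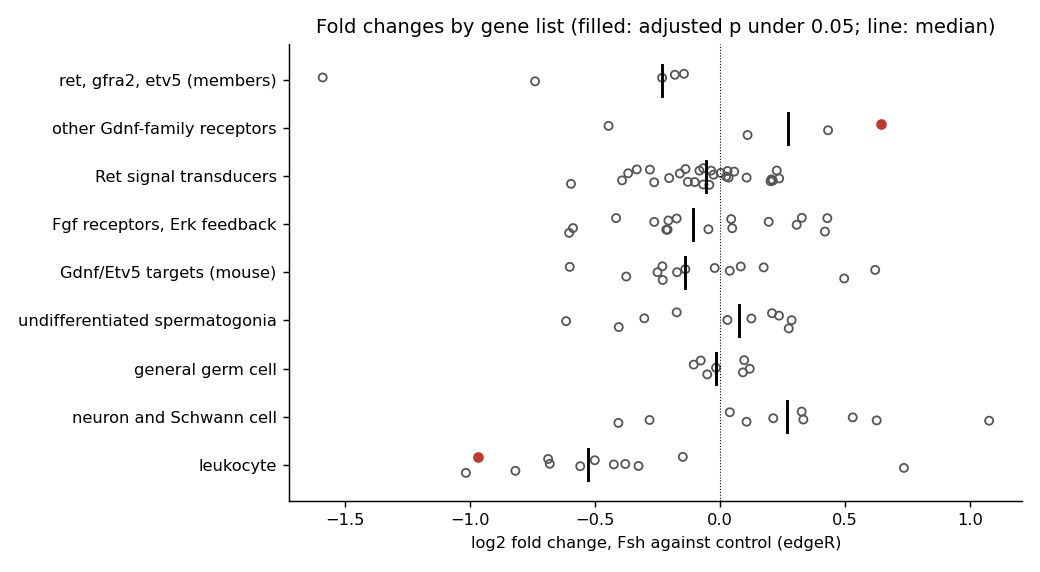
Log2 fold changes (Fsh against control, edgeR) of the tested genes of the route and of 8 gene lists, with 1 point per gene ID and a line at the median. Filled points have an adjusted p under 0.05: NCAM1, a binding partner in the list labelled other Gdnf-family receptors, and cd4-1 among leukocyte genes. RET is the leftmost point of all lists shown, at −1.59.

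Since ret is used as a marker of undifferentiated spermatogonia, its level was set beside other genes of those cells. Of 13 such IDs 10 were tested, and 0 rose and 0 fell (edgeR), with 1 at an unadjusted p under 0.05, 1 called by DESeq2 and 0 by limma-voom. It was SALL4, a zinc finger gene of stem and progenitor spermatogonia, at 37.8 ± 5.54 CPM in controls and 28.5 ± 3.87 CPM with Fsh (log2 fold change −0.41 ± 0.12, edgeR adjusted p = 0.107, DESeq2 adjusted p = 0.04998). The Plzf gene ID ZBTB16 (−0.17 ± 0.23, adjusted p = 0.750) and its copy zbtb16b (0.29 ± 0.22, adjusted p = 0.536) did not pass. Of the 10 tested IDs 6 had a log2 fold change above 0 and 4 below 0, with a median of 0.08. The summed level of the list was 201 to 352 CPM in controls and 232 to 332 CPM with Fsh, so the groups overlapped. Most of that sum was PIWIL2 (means of 205 CPM in controls and 209 CPM with Fsh), so the overlap says little about the other IDs. General germ cell genes had a median log2 fold change of −0.02 over 7 tested, with 0 calls, 0 at an unadjusted p under 0.05, and 0 called by DESeq2 or limma-voom; DDX4 had the smallest p (0.12 ± 0.17, adjusted p = 0.768). With the mean of these germ cell lists as a covariate, ret stayed at −1.59 ± 0.39 (adjusted p = 0.0517).

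Later germ cell stages held no edgeR call either. Of 8 tested IDs for differentiating spermatogonia 2 had an unadjusted p under 0.05, led by DMRT1, a transcription factor gene of Sertoli cells and spermatogonia (log2 fold change 0.36 ± 0.13, adjusted p = 0.166). The other, CCNA1, lay below 0 (−0.31 ± 0.14, adjusted p = 0.271). Of the 8 IDs 3 lay above 0 and 5 below 0, with a median of −0.06. Of 11 meiosis genes 3 had an unadjusted p under 0.05, led by the recombinase gene DMC1 (0.98 ± 0.32, adjusted p = 0.136). Without Fsh library 5 DMC1 passed (adjusted p = 0.0345). With the leukocyte covariate, itself lower on average with Fsh, DMC1 was at 0.29 (adjusted p = 0.583). Of the 11 meiosis genes 9 had a log2 fold change above 0 (median of the list 0.31). MSH5, a MutS homologue gene of meiotic recombination, was 1 of the 2 below 0 (−0.97 ± 0.44, adjusted p = 0.273). DESeq2 and limma-voom called 0 in both lists.

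Single somatic cell genes were called in the same libraries. Of 12 Sertoli cell genes tested 3 rose and 0 fell (edgeR adjusted p under 0.05), igf3, inha and gsdf, and of 9 Leydig cell genes 2 rose and 0 fell, insl3 and HSD11B2. At an unadjusted p under 0.05 stood 6 of the 12 and 7 of the 9, beside 17.4% of all genes tested. Among those, the Sertoli list ID CLDN11 (ENSDARG00000030723) lay below 0 (−0.61 ± 0.23, adjusted p = 0.185). Of the 12 Sertoli cell genes 7 lay above 0 and 5 below 0 (median log2 fold change 0.05). Of the 9 Leydig cell genes 7 lay above 0 and 2 below 0 (median 0.80). These lists were chosen with earlier results of these data known, so the shares describe them and carry no test. DESeq2 called 4 Sertoli and 3 Leydig cell genes, beside 4.72% of all genes it tested, and limma-voom 3 and 2, beside 1.87%. The calls of igf3 and insl3 held without each single library, and those of inha, gsdf and HSD11B2 were lost without any of 8, 8 and 9 libraries, at adjusted p values of up to 0.0769, 0.0977 and 0.0847. With the leukocyte covariate igf3 alone of these 5 stayed called, and insl3, inha, gsdf and HSD11B2 stood at adjusted p values of 0.0537, 0.0808, 0.119 and 0.0778. That covariate was itself lower on average with Fsh, so its share and that of Fsh cannot be told apart. A robust fit ended the calls of gsdf (adjusted p = 0.0614) and HSD11B2 (adjusted p = 0.0547).

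The summed level of 13 leukocyte IDs was 1133 to 1840 CPM in controls and 442 to 1435 CPM with Fsh, and none was at 0 in all libraries. Most of that sum came from cd74a (means of 725 CPM in controls and 450 CPM with Fsh) and cd74b (479 and 325 CPM). Of 12 leukocyte IDs tested 11 had a log2 fold change below 0 (median −0.53), and 6 had an unadjusted p under 0.05, beside 17.4% of all genes tested. This list, too, was chosen with earlier results known, so that share carries no test. DESeq2 and limma-voom called 1 each. In edgeR 1 fell, the T cell co-receptor gene cd4-1 (−0.97 ± 0.21, edgeR adjusted p = 0.0371, and up to 0.0920 without control library 2, 4 or 5 or Fsh library 2, 3, 4 or 6, each of which ended the call). The call of cd4-1 ended, too, when counts were scaled by library totals alone (adjusted p = 0.0540) and when no low-count filter was set (0.0596). With the leukocyte covariate its adjusted p was 0.0870, but cd4-1 is itself part of that covariate, so this fit is no check of its call. Control library 2, with the lowest ret of the controls, had the highest leukocyte sum (1840 CPM), and control library 6, with the next lowest ret, had 1669 CPM. Fsh library 5, with the highest etv5a and etv5b, had the highest leukocyte sum of its group (1435 CPM). These are single libraries. Control libraries 1, 3, 4 and 5 had leukocyte sums of 1133 to 1298 CPM, with ret at 5.98 to 8.89 CPM. In the Fsh group library 2, with the highest ret, had a sum of 562 CPM, and library 3, with the lowest, 745 CPM. Over all 12 libraries the Pearson r of log2 levels with the leukocyte sum was 0.26 for ret, 0.37 for etv5a and 0.32 for etv5b. These r values include the difference between the groups, so they do not show the relation within a group, which was not tested. When the mean leukocyte level entered the fit as a covariate, ret was at −1.75 ± 0.44 (adjusted p = 0.0706), etv5a at −0.12 ± 0.19 (adjusted p = 0.775) and etv5b at 0.00 ± 0.19 (adjusted p = 0.995). The median leukocyte sum was itself lower with Fsh (944 CPM) than in controls (1274 CPM). The covariate can thus take up part of the group difference, and its share and that of Fsh cannot be told apart.

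Markers of neurons and Schwann cells, which could also carry ret, held no edgeR call. Of 17 IDs 10 were tested and 0 were called (edgeR), with 2 at an unadjusted p under 0.05, 1 called by DESeq2 and 0 by limma-voom. The summed level of the list was 67.8 to 77.7 CPM in controls and 72.1 to 89.1 CPM with Fsh. Most of that sum came from 1 ID (means of 44.2 CPM in controls and 45.5 CPM with Fsh). TH, the rate-limiting enzyme of catecholamine synthesis, had 16 reads in all, but it was among the least read of the list. Of the 10 tested 8 had a log2 fold change above 0. The median log2 fold change of the list was 0.27, and the part of these cells in the level of ret was not tested.

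**Figure D5:**
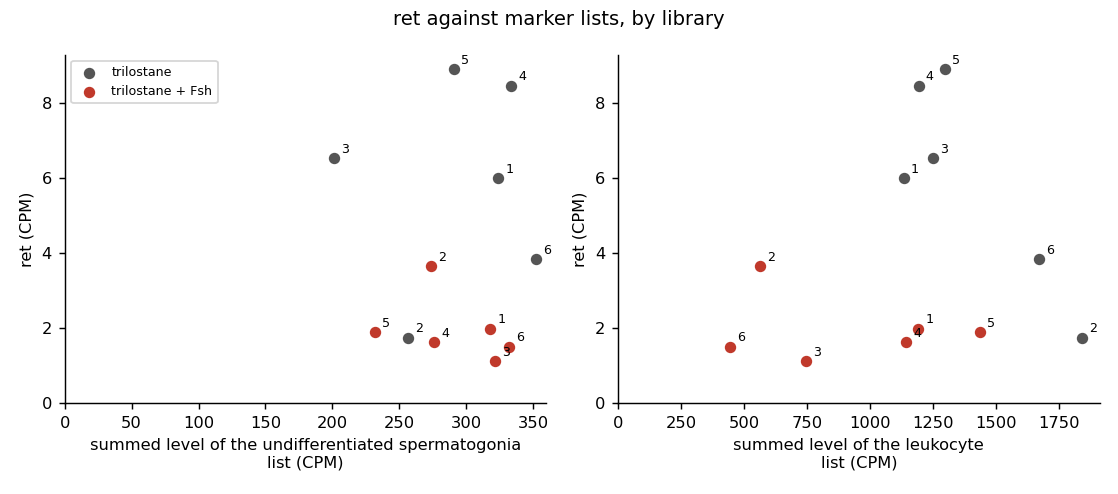
Level of ret (CPM) against the summed level of 13 genes of undifferentiated spermatogonia (left) and of 13 leukocyte genes (right), 1 point per library with its number, controls in grey and Fsh libraries in red. On the left the groups cover similar ranges of the marker sum, most of which is PIWIL2, while 5 of 6 controls have more ret than any Fsh library. On the right most of the sum is cd74a and cd74b. There control libraries 2 and 6 have the highest leukocyte sums, 1840 and 1669 CPM, and the lowest ret of the controls. Over all 12 libraries the Pearson r of the log2 values on the right is 0.26, which includes the difference between the groups.

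Likeness of pattern was taken as Pearson's r of log2 levels over all 12 libraries, which share the difference between the groups. The 4 named genes most like ret were si:ch211-57n23.4 (r = 0.91), PARP16 (0.90), a mono-ADP-ribosyltransferase of the endoplasmic reticulum, cngb1b (0.89), a cyclic nucleotide-gated channel subunit, and wdr62 (0.88), a spindle pole protein. With the group means removed, r with ret was 0.79, 0.78, 0.80 and 0.83 in the same order. Among the genes of the route r with ret was 0.57 for etv5a, 0.35 for etv5b, 0.41 for GFRA2 (ENSDARG00000042723) and −0.22 for GFRA2 (ENSDARG00000044015). Since those 4 genes were picked for the highest r, every other tested gene with a symbol lies below them.

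The 4 genes most like etv5b were ETF1 (r = 0.90), a translation termination factor, SLA (0.89), a Src-like adaptor of leukocytes, cox8a (0.88), a subunit of cytochrome c oxidase, and si:dkey-172j4.3 (0.86). With the group means removed these were 0.90, 0.87, 0.88 and 0.84. None of the 4 was called (edgeR adjusted p from 0.412 to 0.830), and si:ch211-57n23.4 was the 1 call among the genes like ret, with a fall from 11.1 to 6.30 CPM (−0.82 ± 0.19, adjusted p = 0.0491). With some 19317 genes compared over 12 libraries, values of this size describe these libraries and carry no test.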

How the data were processed

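The authors deposited whole-number counts per Ensembl gene ID for each of 12 testis libraries, not normalized. The submitters' processing notes name CASAVA 1.8, STAR 2.3, HTSeq and genome build Zv9. The sources used here do not give how strand and reads matching more than 1 gene were handled, so copies that share reads and genes with an antisense partner are uncertain. A symbol table named 21939 of 33737 IDs. No gene lengths of that build were used, so levels are not compared between genes, and no sequences or coordinates are given.

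Counts were fitted in R 4.3.3 with edgeR 4.0.16 (TMM, filterByExpr, glmQLFit and glmQLFTest, 6 control against 6 Fsh libraries, no covariates), with Benjamini-Hochberg adjustment over all 19317 genes tested and a call at an adjusted p under 0.05. Adjusted p values of genes are edgeR's except where DESeq2 or limma-voom is named. A standard error is the log2 fold change divided by the square root of F, and 95% intervals use the fit's degrees of freedom. Levels are TMM-scaled CPM, mean ± SD. Log2 ratios within libraries (1 added to each count) were tested by exact permutation over 924 arrangements in Python 3.11.15; only that of the etv5 copies was planned, and the other 5 were chosen after the counts were seen.

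The genes and the 12 lists, which match 155 of 187 entries, were chosen with earlier results of these data known. Named list genes are up to 3 called genes per list in order of p, or the gene with the smallest p; further list genes were picked after their values were seen. Some genes of the neuron and Schwann cell list are not reported here by name. The genes most like ret and etv5b are the 4 highest Pearson r with a symbol. Alternatives were DESeq2 1.42.0, limma-voom (limma 3.58.1), other scalings and filters, a robust fit, the replicate number as a block, covariates and leaving out each library. The submitters call the libraries of a group biological replicates; within a group, no 2 libraries agreed within sampling noise (chi-square per degree of freedom from 5.40 to 43.0). The edgeR step was tested on simulated data.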

Additional observations from a re-analysis of the deposited data

Results flagged for a closer look

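In the Fsh group a single library stood apart from the other 5 for 3 of the 6 genes. The level of GDNF in Fsh library 4 was 1.13 CPM (9 reads), and the other 5 Fsh libraries lay between 0.172 and 0.399 CPM. The level of ret in Fsh library 2 was 3.64 CPM, with the others from 1.12 to 1.98 CPM. The level of etv5a in Fsh library 5 was 17.8 CPM, with the others from 9.97 to 12.2 CPM. In each case the gap to the next library exceeded the 95% critical value of Dixon's test. Such checks numbered 24, over the levels of the 6 genes and the 6 within-library ratios in each group. Chance gives about 1 in 20, but levels and ratios share counts, so the checks are not independent. Flags numbered 3, all among the levels. Without the library in question the log2 fold change of ret was −1.85 (adjusted p = 0.0537) and that of etv5a −0.37 (adjusted p = 0.195) in edgeR.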

How the results depend on the processing

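The count of called genes moved most: from 315 to 1090 in DESeq2, to 491 with the germ cell markers as a covariate, and to between 95 (without Fsh library 2) and 758 (without Fsh library 5) when a library was left out. Of the genes of the route 0 were called, and 1, ret, in DESeq2 (log2 fold change −1.61), without control library 2 and without control library 6. Leaving out a library moved the fold change of ret between −1.85 and −1.45, and other settings between −1.75 and −1.42. The value of GFRA2 (ENSDARG00000044015) ran from −0.36 to 0.16 over the left-out libraries and turned sign without control library 3 (0.16) or Fsh library 5 (0.01), and that of DDX4 turned to −0.093 with the leukocyte covariate; the cause was not tested.

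Leaving out a library moved the log2 ratio differences between −1.48 and −1.08 (ret over etv5a), −1.53 and −1.06 (ret over etv5b), −1.87 and −1.07 (ret over GFRA2 ENSDARG00000044015), −0.94 and −0.44 (ret over GFRA2 ENSDARG00000042723), 0.27 and 1.14 (between the GFRA2 IDs) and −0.062 and 0.059 (etv5b over etv5a, where the sign turned in 6 of 12). Of 418 alternative fits of the 19 other named genes, 360 kept direction and side of the threshold, 52 lost the call, 3 gained it and 3 turned sign.

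Whether libraries of equal number were paired is not given by the labels and was not settled. Their deviations from the group means correlated from 0.02 to 0.26, all above 0. Of the controls 3 of 6 correlated best with their own number, more than chance gives on average. With the replicate block 381 genes were called, ret was at −1.53 (adjusted p = 0.120), and the calls of NCAM1 (ENSDARG00000056181) and cd4-1 were lost (adjusted p = 0.0739 and 0.0627). For the ratios the block cannot change a difference, since each number occurs once per group, and none passed (exact sign-flip test, adjusted p from 0.188). With 6 pairs this test has few arrangements, so a pass was hard to reach. At 20 to 72 reads per control library, ret is limited by counting error as well as by spread.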
